A study of Bos taurus with 6 samples.

Results

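The Z-disc structural genes of cattle longissimus dorsi muscle were compared between breeds, using RNA-Seq of 3 Shandong black cattle and 3 Luxi cattle, all 18 months old. The 10 genes are ACTN2, ACTN3, MYOZ1, MYOZ2, MYOZ3, TCAP, LDB3, MYOT, FLNC and DES, of 17258 genes listed in all. They were chosen by name, and all 10 were found in the files and passed the filter on low values, as did 9765 of all genes. Luxi is a local breed of yellow cattle, and Shandong black is a younger breed with Luxi, Japanese black and Bohai black ancestry. The methods state that the animals were healthy, came from a different company for each breed and were fed by the same standard. Breed and herd of origin therefore cannot be told apart. One library was made for each animal, and the labels name no treatment. The question of the study was which genes differ between the muscles of the breeds, with fat deposition in view.

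The Z-disc is the boundary of the sarcomere, where actin filaments of neighbouring sarcomeres are crosslinked by alpha-actinin. Around this lattice sit proteins that dock on alpha-actinin, on titin or on the membrane, and some of them bind the phosphatase calcineurin. Fast and slow muscle fibres use different members of some of these families. ACTN3 is the alpha-actinin of fast fibres, whereas ACTN2 is made in all fibres and in the heart. MYOZ1 and MYOZ3 are the calsarcins of fast fibres, and MYOZ2 is that of slow fibres and of the heart. Background of this kind was not measured here, and whole muscle does not tell fewer fibres of a type from less RNA in each fibre.

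The values are FPKM, a fragment count scaled by transcript length and by library depth, so that levels of genes of different length can be compared. Annotated transcripts of a gene were summed, together with assembled ones that had 50% or more of their length on its exons. Other assembled transcripts held 21.6 to 29.8% of the FPKM of a library and were counted for no gene under this rule. The sums of marker lists were taken by this rule only. Differences are given as Luxi minus Shandong black on the scale of log2(FPKM + 1), which understates the change of low genes. The word called stands for an adjusted p under 0.05 with a difference of at least 1 in size, by limma with Benjamini-Hochberg adjustment over all 9765 genes.

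The libraries rest on 14.1 to 14.6 gigabases of aligned sequence in Shandong black cattle and on 17.5 or more in Luxi cattle. Muscle markers were high in all 6 animals, and the summed FPKM of 10 skeletal muscle genes, led by ACTA1, MB and CKM, ranged from 43224 to 53542 in Shandong black cattle and from 23172 to 71695 in Luxi cattle, with Luxi 1 lowest. Luxi 1 stood apart in other ways too. Its summed FPKM of 6 endothelial markers was 79.4, against 21.1 to 22.8 in Shandong black cattle and 27.6 and 39.9 in Luxi 2 and Luxi 3. Its 10 smooth muscle and mural markers summed to 354, against 125 to 183 in the other 5 animals. The 8 connective tissue markers, led by COL3A1, DCN and COL1A1, summed to 131 to 206 FPKM in Shandong black cattle and to 421 to 533 in Luxi cattle. Of these, 2 were called, both higher in Luxi, against 1.56% of all genes tested. The 7 fat cell markers tested all had negative differences, and 4 of them were called, against 0.993% of all genes called lower in Luxi. Their list summed to 129 to 197 FPKM in Shandong black cattle and to 14.9 to 37.3 in Luxi cattle. A called fat cell marker, at means of 14.6 FPKM in Shandong black and 0.889 in Luxi cattle, passed the filter only by the former. Its call is therefore not independent of the filter. XIST, the RNA that coats the inactive X chromosome of females, was listed at 10.7, 4.83 and 14.0 FPKM in Shandong black cattle and at 0, 0 and 0.207 in Luxi cattle. Of 7 sex-linked genes sought, XIST alone was found by name, so no other marker of sex was read. The labels give no sex, so breed and sex cannot be told apart.

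Of the 10 Z-disc genes, MYOZ3 alone was called, and it was higher in Luxi cattle. Over all genes tested, 2.55% were called. The animals of the breeds did not overlap for 4 of the 10 genes, with MYOZ3 higher in Luxi and MYOZ2, MYOT and FLNC lower. Over all genes the animals did not overlap, and were higher in Luxi, for 20.0%, and for 9.1% they did not overlap and were lower in Luxi. The median difference of the 10 genes was -0.43, against 0.13 over all genes tested, with 4 positive and 6 negative differences. In these 3 against 3 comparisons the exact two-sided permutation test cannot give a p below 0.1, and that value was reached by MYOZ2, MYOZ3, MYOT and FLNC. At an unadjusted p under 0.05 in limma stood 4 of the 10, namely ACTN3, MYOZ2, MYOZ3 and FLNC, against 21.9% of all genes.

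**Figure D1:**
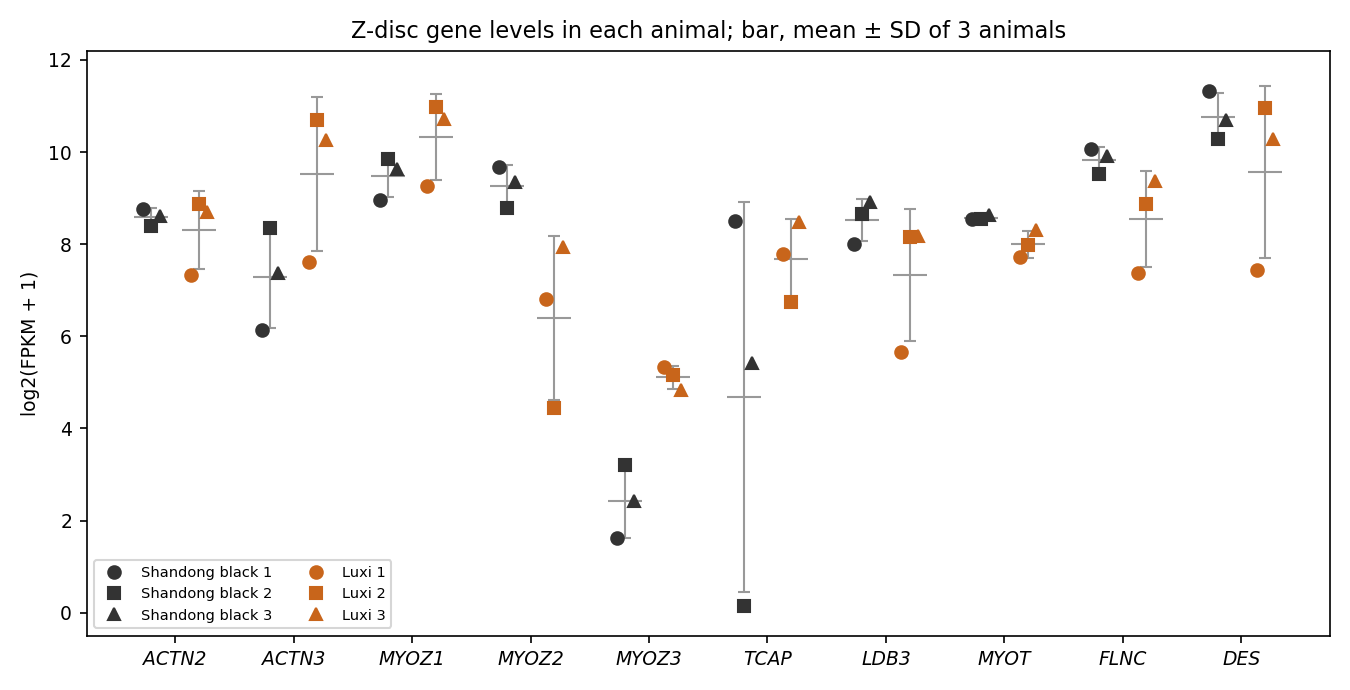
Level of each Z-disc gene in each animal as log2(FPKM + 1), with Shandong black cattle in black, Luxi cattle in orange and one symbol for each replicate number. The grey bars give the mean and the SD of 3 animals. For MYOZ3 the Luxi animals, at 27.7 to 39.5 FPKM, all lie above the Shandong black animals, at 2.09 to 8.22 FPKM.

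The order of the levels differed between the breeds. In Shandong black cattle DES was first at 1823 ± 678 FPKM (SD, n = 3), followed by FLNC at 922 ± 170, MYOZ1 at 736 ± 215 and MYOZ2 at 635 ± 189. ACTN2, MYOT and LDB3 came next with means between 380 and 387, then ACTN3 at 186 ± 128, TCAP at 134 ± 197 and MYOZ3 at 4.89 ± 3.10. Neighbours in that order overlapped between animals, except DES against FLNC and MYOZ2 against ACTN2. In Luxi cattle MYOZ1 was first at 1442 ± 737 FPKM, followed by DES at 1142 ± 917 and ACTN3 at 1025 ± 748. MYOZ2 was last but one at 125 ± 112 and MYOZ3 last at 34.0 ± 5.89. In Luxi cattle every gene overlapped with the next in that order. The places of ACTN2 and TCAP depend on how transcripts were valued. From the coverage of its exons, ACTN2 had means of 1034 FPKM in Shandong black and 524 in Luxi cattle. With every assembled transcript that overlaps its exons counted, TCAP had means of 372 and 241.

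The 10 genes together made up 1.91 to 2.49% of the gene FPKM of the Shandong black libraries, and 0.942, 2.41 and 2.05% of that of Luxi 1, 2 and 3. Luxi 1 had the lowest level of all 6 animals for 5 of the genes, namely ACTN2, LDB3, MYOT, FLNC and DES. Without Luxi 1 the differences were 0.20 for ACTN2, 3.19 for ACTN3, 1.37 for MYOZ1, -3.08 for MYOZ2 and 2.58 for MYOZ3. They were 2.92 for TCAP, -0.36 for LDB3, -0.43 for MYOT, -0.71 for FLNC and -0.14 for DES. Leaving out Luxi 1 turned the sign of ACTN2 only, and MYOZ3 was still called (limma adjusted p = 0.0299).

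The alpha-actinins crosslink the actin filaments. ACTN2 lies on chromosome 28 at 9324680-9403357, plus strand, of ARS-UCD1.2, and its one annotated transcript has 21 exons and 2925 bases. Its level was 434, 333 and 393 FPKM in Shandong black 1, 2 and 3, and 160, 470 and 413 in Luxi 1, 2 and 3. The breeds overlapped, with Luxi 1 lowest and Luxi 2 highest. The difference was -0.29 ± 0.46 (SE; limma adjusted p = 0.751), and without Luxi 1 it was 0.20.

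For ACTN2 the deposited transcript value is lower than the coverage of the exons it is made of. The mean coverage over the exons, weighted by their length, was 2.54, 2.79 and 2.72 times that of the transcript in Shandong black cattle and 2.32, 1.37 and 1.34 times in Luxi cattle. Set on the FPKM scale from the exons, ACTN2 was 1101, 932 and 1069 in Shandong black cattle and 371, 646 and 554 in Luxi cattle. On that scale all 3 Luxi animals lay below all 3 Shandong black animals. The difference was -1.01, with a limma adjusted p of 0.154, so it was not called. In 20 of the 21 exons the coverage per gigabase of every Luxi animal was below that of every Shandong black animal, and the last exon was the exception. There it was 149, 85.8 and 110 reads per base per gigabase in Shandong black cattle and 68.9, 202 and 210 in Luxi cattle. With exon coverage in place of transcript values, 9.36% of all genes had Luxi animals below all Shandong black animals, and 4 of the Z-disc genes did. Over all annotated transcripts with an FPKM of at least 1, the exon mean was over 1.2 times the transcript value in 4.31 to 5.63% per library. Among the other Z-disc genes such a gap was seen for DES and TCAP. This scale was chosen after seeing the data.

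**Figure D2:**
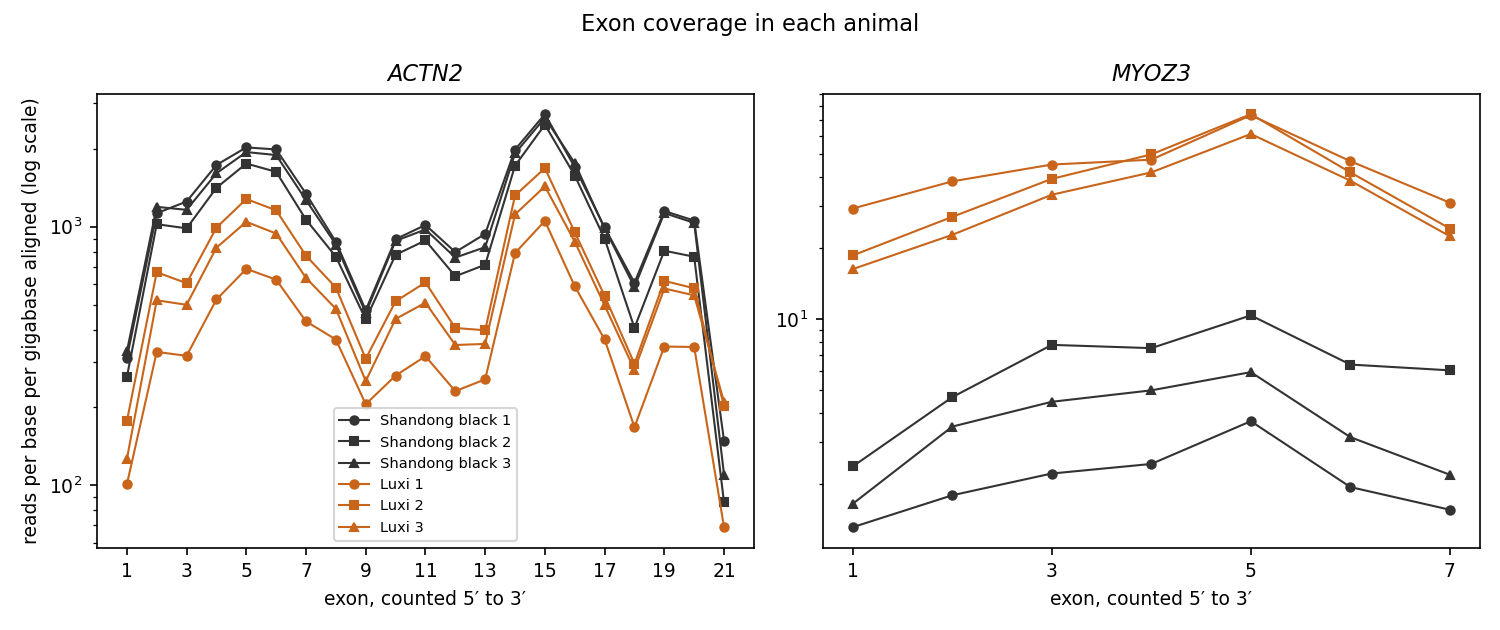
Coverage of each exon of ACTN2 and MYOZ3, in reads per base per gigabase of aligned sequence on a log axis, against exon number from the 5′ end. Each line is one animal, Shandong black in black and Luxi in orange. The orange lines of ACTN2 lie below the black ones in all exons except exon 21, and those of MYOZ3 lie above them in all 7 exons.

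ACTN3 lies on chromosome 29 at 44584938-44596722, plus strand, and its leading transcript also has 21 exons. Its level was 69.6, 323 and 165 FPKM in Shandong black 1, 2 and 3, and 195, 1649 and 1230 in Luxi 1, 2 and 3. Luxi 2 and Luxi 3 were above all other animals, while Luxi 1 lay inside the Shandong black range. The difference was 2.24 ± 0.89 (SE), and it was not called (limma adjusted p = 0.203). Without Luxi 1 the difference was 3.19 and the gene was called, with a limma adjusted p of 0.0385. The leading transcript held over 99.9% of its FPKM in every animal, and the exon coverage was that of the transcript.

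The ratio of ACTN3 to ACTN2 within a library does not depend on how libraries are scaled. It was 0.160, 0.970 and 0.421 in Shandong black 1, 2 and 3, and 1.22, 3.51 and 2.98 in Luxi 1, 2 and 3. ACTN2 thus had the higher FPKM in all 3 Shandong black animals and ACTN3 in all 3 Luxi animals, but with exon coverage the ratio of Luxi 1 was 0.527, below 1. The breeds did not overlap on either scale. The mean log2 ratio was higher in Luxi by 2.54, with an exact two-sided permutation p of 0.1, the smallest possible, and the same value after adjustment over the 4 ratios computed.

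The calsarcins, MYOZ1, MYOZ2 and MYOZ3, tie alpha-actinin and filamin C to calcineurin. MYOZ1 lies on chromosome 28 at 29615077-29627523, minus strand. Its level was 499, 917 and 792 FPKM in Shandong black 1, 2 and 3, and 613, 2022 and 1690 in Luxi 1, 2 and 3. As for ACTN3, Luxi 2 and Luxi 3 were above all other animals and Luxi 1 was among the Shandong black animals. The difference was 0.84 ± 0.55 (SE; limma adjusted p = 0.403).

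The transcript that held 82.1 to 96.5% of MYOZ1 has a first exon of 126 bases, chromosome 28 at 29627398-29627523. This exon lies within an exon of the neighbouring gene SYNPO2L on the same strand, at 29625247-29628922. Its coverage was listed at 127 reads per base per gigabase in Shandong black 1 and near 0.1 in the other 5 animals, although the next exons were covered in all. Which transcript start was used can therefore not be read from the transcript shares of MYOZ1.

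MYOZ2 lies on chromosome 6 at 6097584-6136039, minus strand. Its level was 818, 440 and 648 FPKM in Shandong black 1, 2 and 3, and 111, 20.6 and 244 in Luxi 1, 2 and 3. Every Luxi animal lay below every Shandong black animal, and Luxi 2 was the lowest of all. The difference was -2.87 ± 0.83 (SE, 95% interval -4.81 to -0.94), which did not pass the adjusted threshold (limma adjusted p = 0.109). The coverage per gigabase was lower in every Luxi animal in all 6 exons of its leading transcript. Transcripts on the opposite strand within its span had at most 5.57 FPKM in an animal, and reached 14.2% of the MYOZ2 level in Luxi 2. The kit named in the labels is not described there as keeping strand, so reads of the strands may not have been told apart.

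MYOZ3 lies on chromosome 7 at 62030519-62047849, plus strand. Its level was 2.09, 8.22 and 4.35 FPKM in Shandong black 1, 2 and 3, and 39.5, 34.7 and 27.7 in Luxi 1, 2 and 3. The breeds did not overlap, and unlike the other fast-fibre members the gene was highest in Luxi 1. The Luxi mean was 6.95 times that of Shandong black, and the difference was 2.70 ± 0.39 (SE, 95% interval 1.78 to 3.61). It passed the adjusted threshold (limma adjusted p = 0.0238). In all 7 exons of the leading transcript, every Luxi animal had more coverage per gigabase than every Shandong black animal. In exon 5, for example, the coverage was 3.68, 10.3 and 5.94 reads per base per gigabase in Shandong black cattle and 73.2, 74.0 and 60.9 in Luxi cattle. The call was lost when Shandong black 1, Shandong black 3, Luxi 2 or Luxi 3 was left out, with adjusted p-values of 0.0780, 0.123, 0.0720 and 0.0626. It was also lost with no filter on low values (adjusted p = 0.0675), where 17258 genes were tested. The difference itself stayed between 2.30 and 3.09 under every alternative run.

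**Figure D3:**
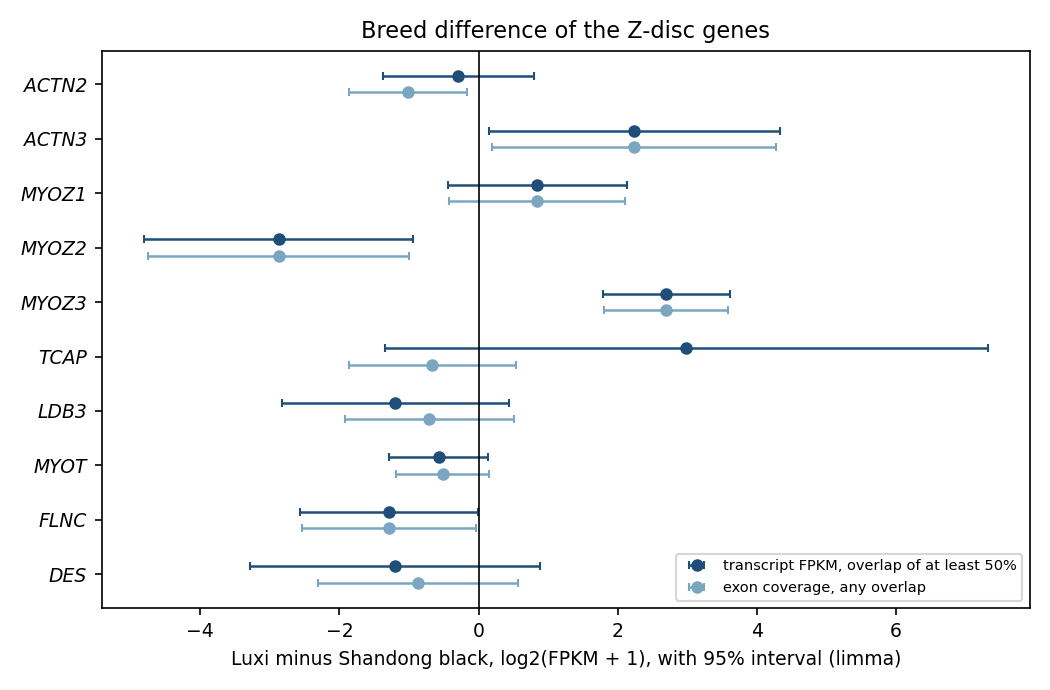
Difference of each Z-disc gene, Luxi minus Shandong black on the log2(FPKM + 1) scale, with its 95% interval from limma, for transcript FPKM with the 50% rule (dark) and for exon coverage with any overlapping transcript (light). MYOZ2 and MYOZ3 are alike on both scales, ACTN2 is at -0.29 and -1.01, and TCAP at 2.98 and -0.66.

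Ratios between the calsarcins were also taken within libraries. The ratio of MYOZ1 to MYOZ2 was 0.610, 2.08 and 1.22 in Shandong black 1, 2 and 3, and 5.52, 98.0 and 6.94 in Luxi 1, 2 and 3. The mean log2 ratio was higher in Luxi by 3.75. MYOZ3 to MYOZ2 was 0.00256, 0.0187 and 0.00671 in Shandong black cattle and 0.355, 1.68 and 0.114 in Luxi cattle, a difference of 5.90 in the mean log2 ratio. Only in Luxi 2 did MYOZ3 have a higher FPKM than MYOZ2. The fast-fibre calsarcins also differed from each other, since MYOZ1 was 239, 112 and 182 times MYOZ3 in Shandong black cattle and 15.5, 58.3 and 60.9 times in Luxi cattle. The difference in that mean log2 ratio was -2.15. For each of the 4 ratios the animals of the breeds did not overlap, and each had an exact two-sided permutation p of 0.1 before and after adjustment. Any such separation gives this p, so it adds nothing to the lack of overlap. The ratio of MYOZ3 to MYOZ2 had to separate, because each of these genes separated the breeds, in opposite directions. The directions were the same under each of the other ways of summing transcripts and without any one animal.

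**Figure D4:**
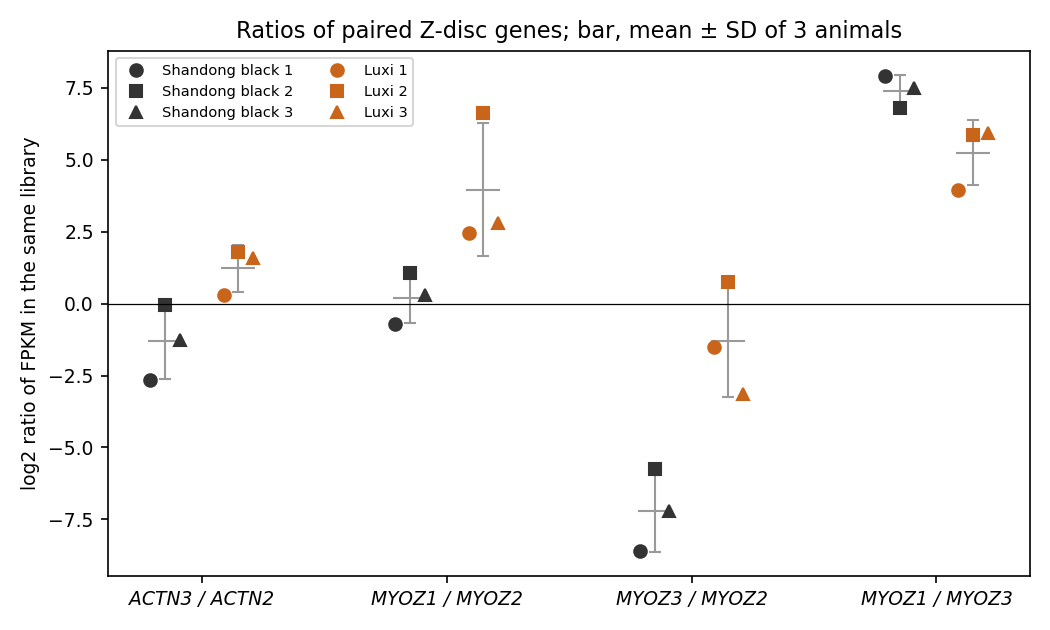
Log2 ratio of the FPKM of pairs of Z-disc genes within the same library, with Shandong black cattle in black and Luxi cattle in orange, and the mean and SD of 3 animals in grey. The breeds separate for each ratio, and the MYOZ1 to MYOZ2 ratio of Luxi 2, at 98.0 before the log, stands far above the others.

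Fibre type markers were set beside these genes, and their part in the differences was not tested. The 10 fast-fibre markers tested all had positive differences, with a median of 2.11, and limma called none of them, while 6 had an unadjusted p under 0.05, against 21.9% of all genes. Their summed FPKM, led by MYLPF, MYL1 and TNNC2, was 3832, 4821 and 6338 in Shandong black 1, 2 and 3, and 5447, 33250 and 31667 in Luxi 1, 2 and 3. In this sum Luxi 1 lay among the Shandong black animals, as it did for ACTN3 and MYOZ1. For 4 of the 10 markers, however, every Luxi animal was above every Shandong black animal, against 20.0% of all genes. Of the 9 slow-fibre markers tested, 8 had negative differences, with a median of -1.11. Limma called 1, which was lower in Luxi, against 0.993% of all genes, and 4 had an unadjusted p under 0.05, against 21.9%. For 5 of the 9, every Luxi animal was below every Shandong black animal, against 9.1% of all genes. MYL3 was the exception, with a difference of 3.33 that was not called. It was at 13.1, 46.4 and 26.6 FPKM in Shandong black cattle and 1180, 63.5 and 244 in Luxi cattle, with no overlap. The sum of the slow-fibre list, led by MYL2, TNNC1 and TPM3, was 32818, 26564 and 28726 in Shandong black cattle and 12961, 3429 and 13863 in Luxi cattle. Luxi 2 was lowest, as it was for MYOZ2. MYOZ2 and ACTN2 are also genes of the heart, and of the cardiac markers, ACTC1, the cardiac actin, was called lower in Luxi (limma adjusted p = 0.0144). It was at 946, 278 and 735 FPKM in Shandong black 1, 2 and 3, and at 5.53, 7.62 and 26.7 in Luxi 1, 2 and 3. The call was lost without Luxi 2, Shandong black 1 or Shandong black 3 (adjusted p = 0.0557, 0.0734 and 0.0847). TNNT2, the cardiac troponin T, lay in the opposite direction and was not called. It was at 0.298 to 1.01 FPKM in Shandong black cattle and 1.14 to 2.80 in Luxi cattle, with no overlap. TNNT2 passed the filter only by its Luxi mean of 2.18 FPKM, against 0.750 in Shandong black cattle. Its direction is therefore not independent of the filter. The other 7 cardiac markers were sought but not found by name among the genes listed, so no level is given for them.

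The genes whose pattern over the 6 animals was closest to that of a Z-disc gene were sought for the 3 members that varied most, by the root mean square difference of centred log2(FPKM + 1). For MYOZ2 they were MYL2 (0.44), CASQ2 (0.46) and RCAN1 (0.56). For ACTN3 they were MYLPF (0.26), AK1 (0.36) and TNNI2 (0.37). For TCAP, whose values change with the rule for assembled transcripts, the closest genes were PPP1R2, PINK1 and MAP4, at 1.39 to 1.57. Within the Z-disc genes the closest pair was ACTN2 and MYOT (0.42), followed by LDB3 and FLNC (0.47). ACTN2 and MYOT also varied least of the members (SD 0.57 and 0.37 over the 6 animals), which by itself makes this measure small. All these likenesses are descriptions over 6 animals that share their libraries.

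TCAP, or telethonin, caps the ends of titin in the Z-disc. It lies on chromosome 19 at 40041921-40042649, plus strand, with 2 exons and 501 bases. By the 50% rule its level was 361, 0.0993 and 42.1 FPKM in Shandong black 1, 2 and 3, and 221, 106 and 355 in Luxi 1, 2 and 3. Shandong black 2 lay near 0 and Shandong black 1 was the highest, so the breeds overlapped. The difference was 2.98 ± 1.85 (SE; limma adjusted p = 0.382).

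These TCAP values rest on how the transcripts were assembled. In Shandong black 2 an assembled transcript of 986 bases at 40041067-40043110 held 319 FPKM, and in Shandong black 3 one of 980 bases held 395 FPKM. They had 49.5 and 49.8% of their bases on the TCAP exons, just under the 50% needed. With any overlapping transcript included, TCAP was 361, 319 and 437 FPKM in Shandong black cattle and 221, 106 and 394 in Luxi cattle. The low values of Shandong black 2 and 3 were then gone and the difference was -0.81 (limma adjusted p = 0.369). The direction of TCAP thus depends on this rule, and the gene was not called under either.

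**Figure D5:**
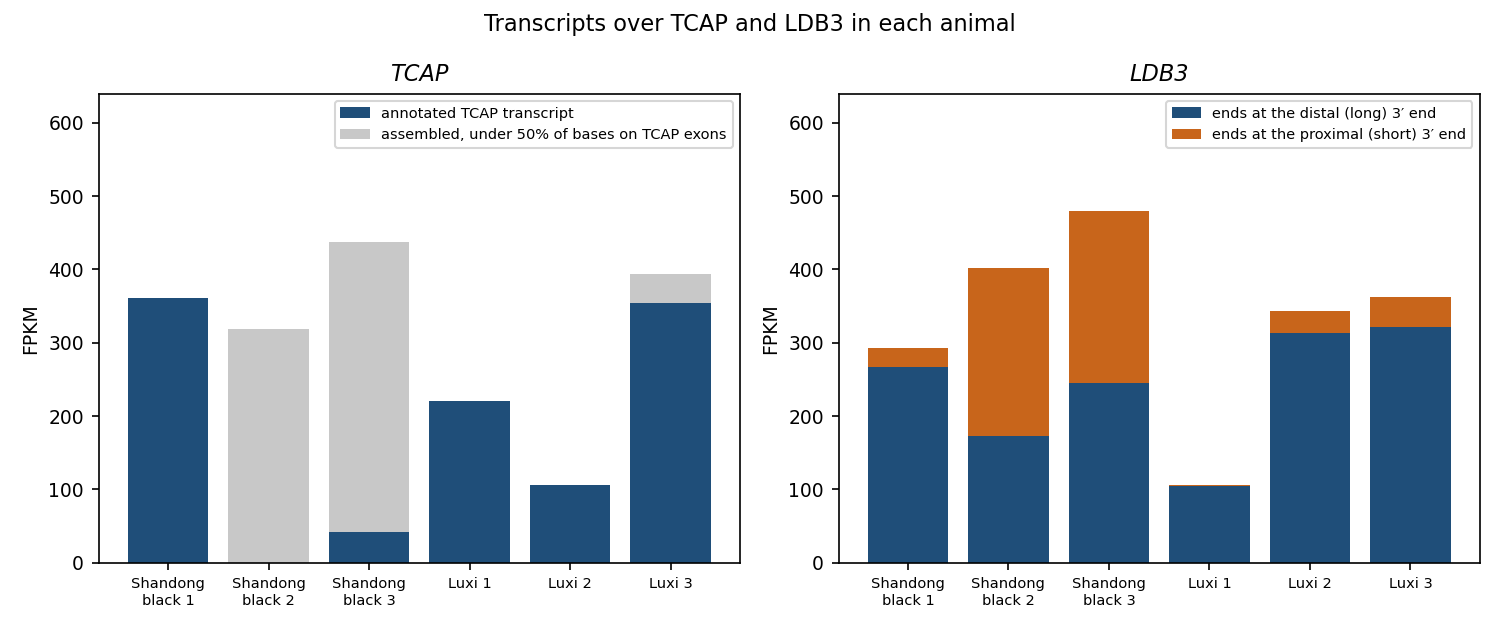
FPKM of transcripts over TCAP and LDB3 in each animal, as stacked bars from 0. For TCAP, blue is the annotated transcript and grey the assembled transcripts under 50% on its exons, which hold 319 and 395 FPKM in Shandong black 2 and 3. For LDB3, blue is transcripts that end at the distal 3′ end and orange those that end at the proximal one, which make up 56.9 and 48.9% in the same animals.

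LDB3, also called ZASP or Cypher, binds alpha-actinin through its PDZ domain and comes in long and short forms, of which the short ones lack the LIM domains. It lies on chromosome 28 at 41325442-41384910, plus strand, with 6 annotated transcripts. Its level was 257, 402 and 480 FPKM in Shandong black 1, 2 and 3, and 49.7, 282 and 288 in Luxi 1, 2 and 3. Luxi 1 was far below the others, while Luxi 2 and Luxi 3 lay within the Shandong black range. The difference was -1.20 ± 0.70 (SE; limma adjusted p = 0.353) and without Luxi 1 it was -0.36. An assembled transcript of 11442 bases, with 49.0% of them on the exons, was left out by the 50% rule in Shandong black 1 and in all 3 Luxi animals. With any overlapping transcript included, Luxi 1 was at 106 FPKM and the difference was -0.70.

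The annotated LDB3 transcripts end at one of 2 positions, the proximal 41355694 or the distal 41384910. Over all transcripts that overlap the exons, those with the proximal end held 8.69, 56.9 and 48.9% of the FPKM in Shandong black 1, 2 and 3, and 0.316, 8.70 and 11.3% in Luxi 1, 2 and 3. Shandong black 2 and 3 were high and Shandong black 1 lay between the Luxi animals. The mean was 38.2% ± 25.8 for Shandong black and 6.76% ± 5.72 for Luxi (SD, n = 3 each), with an exact two-sided permutation p of 0.3. This split was chosen after seeing the data.

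MYOT, or myotilin, crosslinks actin and binds alpha-actinin and filamin C. It lies on chromosome 7 at 49339573-49357206, plus strand. Its level was 372, 375 and 395 FPKM in Shandong black 1, 2 and 3, and 210, 252 and 315 in Luxi 1, 2 and 3. The Shandong black animals were close to each other (SD 12.4), and all 3 Luxi animals lay below them. The difference was -0.57 ± 0.30 (SE; limma adjusted p = 0.311). In 8 of the 10 exons of its leading transcript, every Luxi animal had lower coverage per gigabase than every Shandong black animal. In exon 7 it was 541, 520 and 543 reads per base per gigabase in Shandong black cattle and 178, 220 and 265 in Luxi cattle. Exon 2 overlapped, at 324, 365 and 402 in Shandong black cattle and 309, 324 and 383 in Luxi cattle. Of its 4 annotated transcripts, the leading one held 88.3, 86.1 and 90.2% of the FPKM in Shandong black cattle and 83.0, 78.4 and 75.0% in Luxi cattle. The breeds did not overlap in this share, with an exact two-sided permutation p of 0.1 and 0.4 after adjustment over the 6 genes with more than 1 annotated transcript. For the other 5, the share of the leading transcript overlapped between the breeds.

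FLNC, or filamin C, links the Z-disc to the membrane and to actin, and is the longest of these transcripts, with 47 exons and 8795 bases. It lies on chromosome 4 at 92797981-92825728, plus strand. Its level was 1066, 734 and 968 FPKM in Shandong black 1, 2 and 3, and 166, 469 and 664 in Luxi 1, 2 and 3. All 3 Luxi animals were below the lowest Shandong black animal, and Luxi 1 was again the lowest. The difference was -1.29 ± 0.55 (SE, 95% interval -2.57 to -0.0030), and it was not called (limma adjusted p = 0.228). In 34 of its 47 exons the coverage per gigabase was lower in every Luxi animal than in every Shandong black animal. In Luxi 1 the annotated transcript held 34.2% of the FPKM, and the rest came from assembled transcripts, whereas it held all of it in the other 5 animals.

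DES, or desmin, is the intermediate filament that ties the Z-discs of neighbouring myofibrils together. It lies on chromosome 2 at 107351886-107358961, plus strand. Its level was 2571, 1249 and 1648 FPKM in Shandong black 1, 2 and 3, and 174, 1998 and 1253 in Luxi 1, 2 and 3. Luxi 1 was far below the others, and Luxi 2 and Luxi 3 lay within the Shandong black range. The difference was -1.20 ± 0.89 (SE; limma adjusted p = 0.458), and without Luxi 1 it was -0.14. The coverage of the last of its 9 exons ranged from 0.129 times the mean of the others in Luxi 1 to 0.992 times in Luxi 2. On the exon scale the level of Luxi 1 was 447 FPKM, against 1545 to 2566 in the other animals.

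Other genes of the Z-disc were compared by a list of 30, of which 29 passed the filter. Of these, 1 was called higher in Luxi and 1 lower, over a background of 1.56 and 0.993% of all genes. The list had a median difference of -0.08, with 13 positive and 16 negative. CSRP3, the muscle LIM protein, was called lower in Luxi (-3.39, limma adjusted p = 0.0314). Its level was 3213, 3226 and 3309 FPKM in Shandong black 1, 2 and 3, and 146, 325 and 627 in Luxi 1, 2 and 3. KY, which encodes a protein of the Z-disc that binds filamin C, was called higher (2.06, limma adjusted p = 0.0260). It was listed at 0, 0.214 and 0 FPKM in Shandong black cattle and at 6.0, 3.18 and 2.01 in Luxi cattle, so it was low in both. KY passed the filter on low values only by its Luxi mean of 3.73 FPKM, against 0.0715 in Shandong black cattle. Its call is therefore not independent of the filter. Both calls were lost without Shandong black 1, Shandong black 3 or Luxi 2, that of CSRP3 also without Shandong black 2, with adjusted p-values of 0.0720 to 0.149, and with no filter on low values (0.105 for CSRP3 and 0.0718 for KY). The next largest fall of the list, that of CRYAB, and the next largest rise, that of FHL2, did not pass the adjusted threshold. Both were called with TPM (limma adjusted p = 0.0415 and 0.0396), but not with size factors (0.0517 and 0.0579). CRYAB, a small heat shock protein that binds desmin, was at 6613, 4326 and 6355 FPKM in Shandong black cattle and at 551, 1062 and 1981 in Luxi cattle (limma adjusted p = 0.0696). FHL2, a LIM protein, was at 1.34, 1.15 and 1.93 FPKM in Shandong black cattle and at 3.81, 7.59 and 15 in Luxi cattle (limma adjusted p = 0.0612).

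The M-band, the crosslink of the myosin filaments in the middle of the sarcomere, was compared by 9 genes. The median difference was -0.26, and 1 gene was called, against 2.55% of all genes tested. MYOM3, a myomesin, was called lower in Luxi (-3.15, limma adjusted p = 0.00927). Its level was 262, 178 and 235 FPKM in Shandong black 1, 2 and 3, and 26.3, 16.8 and 32.0 in Luxi 1, 2 and 3, with no overlap. The call was lost without Shandong black 1 or Shandong black 3 (adjusted p = 0.0595 and 0.0774). TRIM54, a ubiquitin ligase of muscle, had the next lowest difference, -1.43, which was not called (limma adjusted p = 0.0509). TRIM54 was called with TPM, size factors and quantile normalization (limma adjusted p = 0.0390, 0.0327 and 0.0322), but not with a replicate block (0.0818). TRIM63 had the largest positive difference, 1.16 (limma adjusted p = 0.137), followed by OBSL1 with 0.31 (limma adjusted p = 0.449).

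Calcineurin and NFAT genes, to whose pathway the calsarcins bind, were measured for 10 genes. Limma called none, while 4 had an unadjusted p under 0.05, against 21.9% of all genes. Their median difference was 0.51, with 7 positive. RCAN1, an inhibitor of calcineurin that is also a target of NFAT, was at 164, 97.7 and 144 FPKM in Shandong black 1, 2 and 3, and at 54.0, 9.90 and 53.0 in Luxi 1, 2 and 3. The breeds did not overlap, but the difference of -2.06 did not pass the adjusted threshold (limma adjusted p = 0.124). RCAN2 had the next lowest value, -0.29 (limma adjusted p = 0.707). The calcineurin subunit genes PPP3R1 and PPP3CA had the highest, 1.32 and 1.24 (limma adjusted p = 0.255 and 0.0621). PPP3CA was called with TPM (limma adjusted p = 0.0465), but not with size factors (0.0790).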

How the data were processed

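Longissimus dorsi RNA of 3 Shandong black and 3 Luxi cattle was sequenced, one library per animal. According to the methods and file headers, the authors cleaned reads by Fastp, mapped them by HISAT (assembly ARS-UCD1.2) and assembled each library in StringTie (1.3.3b in the headers) with NCBI gene models and a strand option. They deposited the coverage, FPKM and TPM of each transcript. The FPKM deposited by the authors is coverage per aligned base of a library, and depth in gigabases was taken from the ratio of coverage to FPKM. How reads with several alignments were divided is not given in the sources used here. A transcript that is not listed was counted as 0. Whole-number counts were not used here, and the number of animals limits the precision.

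The filter kept genes whose mean FPKM reached 1 in either breed. These were tested on log2(FPKM + 1), a pseudocount of 1, with limma 3.58.1 in R 4.3.3 (lmFit, eBayes with a trend, no covariate). This was tested on simulated data for the breed comparison of 9765 genes, where of 200 genes changed by a log2 difference of 1.5 or 3 it called 59 or 92%. Ratios and transcript shares were compared by exact permutation tests in Python 3.11.15 with scipy 1.17.1. The members, gene lists and tests were chosen with earlier results of these data known. The genes named are the members and, of the lists of other Z-disc, M-band and calcineurin genes, the called genes plus the 2 largest rises and 2 largest falls in value. Of marker lists, at most the 3 genes with the highest mean FPKM are named, apart from genes found by likeness and MYL3. MYL3 is named because its direction was opposite to that of the other slow-fibre markers tested. Alternatives covered the pseudocount, the filter, TPM, size factors, quantile normalization, the trend, a replicate block, the rule for assembled transcripts and leaving out each animal. Exon coverage was added after seeing the data. Names matched ARS-UCD2.0 for all 10 members, and that table was used for names and chromosomes only.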

Additional observations from a re-analysis of the deposited data

How the results depend on the processing

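With 249 genes called over all, the count was 65 with no filter, 139 with a mean FPKM of at least 5, 162 with reference transcripts only, 65 with a log2 difference of at least 2, and 3 to 596 when 1 animal was left out (596 without Luxi 1, 3 without Shandong black 3 and 15 without Shandong black 1). With a replicate block it was 134, and MYOZ3 was still called (adjusted p = 0.0420). The deviations of same-numbered animals correlated across genes at 0.09, 0.09 and 0.08, for each animal the highest value with the other breed but none over 0.1, so the numbers were not taken to pair the animals. Without 1 animal the difference ranged from 2.30 to 3.09 for MYOZ3, from 1.65 to 3.19 for ACTN3 (called without Luxi 1) and from -0.58 to 0.20 for ACTN2 (positive without Luxi 1). MYOZ3 was 2.70 and no longer called with no filter. TCAP turned negative with any overlapping transcript (-0.81) and with exon coverage besides (-0.66). The leading MYOZ2 transcript's share differed by -3.83 to 0.15 percentage points without 1 animal. MYOZ1, MYOZ2, LDB3, MYOT, FLNC and DES kept their direction and were not called under any of the 18 alternatives. The median of all genes was 0.13, but 0.02 with size factors and 0.00 with quantile normalization, and the share of calls that were higher in Luxi was 61.0, 43.9 and 43.3% under these scalings.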
